A study of Mus musculus with 2 samples.

Results

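Heat shock proteins and chaperones are the machinery that folds, refolds and sorts cellular proteins. Members were taken by gene name: the HSP70 and HSP110 genes (Hspa1 onwards and Hsph1), the small heat shock proteins (Hspb), HSP90, the mitochondrial chaperonin pair Hspd1 and Hspe1, the J-domain genes (Dnaja, Dnajb, Dnajc), the numbered Bag genes and the numbered Cct genes. Of 27361 named genes on the array, 86 were members. Of 13625 genes measured, that is, with a probe well above background on both arrays, 75 were members. The comparison was between tibialis anterior, a shin muscle made mostly of fast fibres, of N2ICD mice, transgenic for the activated form of the receptor Notch2, and the same muscle of control mice. All mice were adult males on the C57BL/6 background, and each group was 1 total RNA sample on 1 single-dye array. The series title ties Notch2 made by muscle fibres to muscle mass and fibre type. The promoter of the transgene, the number of lines and whether a sample pooled animals are not given in the sources used here.

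Chaperones work in cycles. HSP70 proteins bind unfolded stretches and spend ATP, J-domain proteins bring them clients and switch on the ATPase, and nucleotide exchange factors such as HSP110 and BAG proteins let the client go. Small heat shock proteins hold unfolding proteins without ATP, HSP90 matures kinases and receptors, and the chaperonins CCT and Hspd1 with Hspe1 fold proteins inside a closed chamber. Muscle makes many of these proteins at high levels, since the sarcomere is under constant mechanical and thermal load, and heat shock factor 1 raises the inducible ones under stress.

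Values are processed spot signals, and differences are log2 of the N2ICD signal over the control signal after each array was scaled to its 75th percentile, 190 for N2ICD and 169 for control. A gene with equal signals on both arrays therefore lies slightly below 0. With 1 array in each group there was no test, and genotype, animal, dissection and array cannot be told apart. Both arrays lay on the same slide and were scanned together. The spots well above background numbered 24982 for N2ICD and 24916 for control, of 59305 each. Between spots of one probe the SD of the difference was 0.14 over 251 repeated probes, 0.24 in the dimmest of 4 level groups and 0.06 in the brightest, and the SD between probes of the same gene was 0.25. This noise holds no spread between animals. In these whole-tissue samples, fewer cells of a type and less RNA per cell cannot be told apart.

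Most chaperone genes were within 2-fold, and their differences leaned upwards. Of the 75 measured members, 4 were at least 2-fold higher in N2ICD muscle, or 5.33%, against 1.42% of all measured genes, and 0 were 2-fold lower, against 0.888% of all genes. The members past 2-fold were the J-domain gene Dnajc21 (1.31), the small heat shock protein Hspb7 (1.20), the HSP110 gene Hspa4 (1.12) and the inducible HSP70 gene Hspa1a (1.11). With normexp background correction Hspa4 (0.94) and Hspa1a (0.79) were under 2-fold, as was Dnajc21 (0.70) when its dim probe was kept and Hspa4 (0.55) by its brightest probe alone. At a threshold of 1.5-fold, 7 members were higher, or 9.33%, beside 5.06% of all genes, and 1 was lower, or 1.33%, beside 4.81% of all genes. The 3 further ones upwards were Dnajc27 (0.81), Dnajc2 (0.67) and Hspa1l (0.62), and the one downwards was Hspb9 (-0.86). Of these, Dnajc2 (0.53), Dnajc27 (0.43) and Hspb9 (-0.54) were under 1.5-fold with normexp, and Dnajc2 was at 0.29 with its dim probe kept. The difference was above 0 for 53 members, or 70.7%, against 50.8% of all genes.

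The median difference was 0.13 over the members and 0.01 over all genes. Scaling by the E1A spike-in probes moved the median of all genes to 0.48 and that of the members to 0.61, so that 74 of 75 members lay above 0 on it, all but Hspb9. Every direction given here is relative to the typical gene. Under the 6 other scalings and corrections, the main one included, 47 members were above 0 each time, 14 were below 0 each time and 14 took both signs. By the spot noise, 34 members, or 45.3%, were higher by over 2 spot SD, beside 23.6% of all genes, and 10, or 13.3%, were lower by as much, beside 20.2% of all genes. These shares depend on signal, because bright spots are less noisy: the median log2 level was 3.04 for members and 1.07 for all genes.

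**Figure D1:**
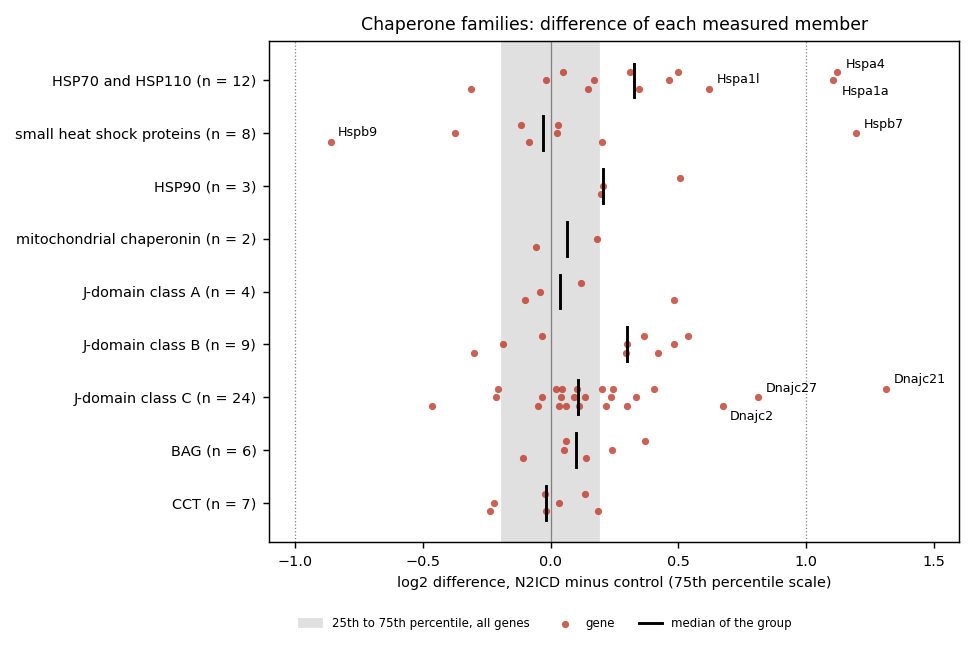
Log2 difference, N2ICD minus control, of each measured chaperone gene (points) by family, with the median of the family (black bar) and the 25th to 75th percentile of all measured genes (grey), on the 75th percentile scale with 1 array in each group. HSP70 and HSP110 (median 0.33), HSP90 (0.21) and class B J-domain genes (0.30) sit to the right, while small heat shock proteins (-0.03) and CCT (-0.02) centre on 0 on this scale and at 0.45 and 0.46 on the spike-in scale; the dotted lines mark 2-fold.

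The other 11 members were well above background on neither array, and 0 members were so on 1 array alone. They were Hspa12a, the class B genes Dnajb3, Dnajb7, Dnajb8 and Dnajb13, the class C genes Dnajc5b, Dnajc5g, Dnajc6 (auxilin, which strips clathrin coats) and Dnajc22, and the chaperonin relatives Cct6b and Cct8l1. Several of them are known mainly from testis. Their signals reached at most 15.4 in N2ICD and 10.9 in control. All 8 small heat shock proteins, all HSP90 genes and all Bag genes were measured.

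The 12 measured HSP70 and HSP110 genes had a family median of 0.33. Of them 10, or 83.3%, were above 0, beside 70.7% of all measured members and 50.8% of all genes. Past 2-fold upwards were 2 of them, beside 1.42% of all genes. The next family medians were 0.30 for class B J-domain genes and 0.21 for HSP90, and with normexp the order changed, at 0.22 for HSP70 and HSP110, 0.29 for class B and 0.24 for HSP90. The cytosolic HSP70 that stress induces, Hspa1a, had an N2ICD signal of 215 and a control signal of 88.5, a 2.15-fold difference. Its neighbour in the major histocompatibility region, Hspa1l, a constitutive HSP70 best known from testis, had 1169 in N2ICD and 675 in control, 1.54-fold higher. Both were thus brighter in N2ICD muscle by more than 2 spot SD, each on a single spot. The file's annotation gives the Hspa1a probe to the almost identical gene Hspa1b as well, so the value stands for both genes together. The probes of Hspa1a (mm9, chr17:35107117-35107176, minus strand, from position 1925 of the transcript) and Hspa1l (mm9, chr17:35115629-35115688, plus strand, from position 1870) are shown because these genes could share signal. They read the same stretch of the coding sequence, and in the overlap 42 of 57 bases are identical, given in capitals.
Hspa1a: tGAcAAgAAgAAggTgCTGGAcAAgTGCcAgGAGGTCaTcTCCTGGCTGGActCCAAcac
Hspa1l: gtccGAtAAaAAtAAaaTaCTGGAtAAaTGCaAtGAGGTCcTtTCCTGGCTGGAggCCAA
Cross-hybridisation between them was not tested.

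The HSP110 genes, which act as exchange factors for HSP70, were higher without exception on this scale. Hspa4 was read by 3 probes that disagreed in size. At transcript position 2811 (chromosome 11 of mm9, 53075085 to 53075144) the signals were 6042 in N2ICD and 3650 in control, a difference of 0.55. At position 4302 they were 455 in N2ICD and 118 in control, a difference of 1.78. At position 4549 they were 1030 in N2ICD and 448 in control, a difference of 1.03. All probes of Hspa4 were higher in N2ICD muscle, and the gene passes 2-fold through the pair nearer the 3′ end. Hsph1, a heat-inducible HSP110, had the same difference at both of its probes, 0.50 (1198 in N2ICD and 750 in control) and 0.49 (3498 in N2ICD and 2208 in control). Hspa4l, the third of these genes, had 198 in N2ICD and 138 in control, a difference of 0.35.

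The main housekeeping HSP70 genes of the cytosol, mitochondria and endoplasmic reticulum lay between -0.02 and 0.17. Hspa8, the heat shock cognate that does most housekeeping folding in the cytosol, averaged 0.05 over 3 probes that ran from -0.06 to 0.17. The mitochondrial HSP70, Hspa9, had 7164 in N2ICD and 6443 in control, a difference of -0.02. The endoplasmic reticulum HSP70, Hspa5 (BiP), had 9547 in N2ICD and 7536 in control, a difference of 0.17. These 3 genes were thus nearer 0 than Hspa1a and Hspa1l were. Hspa2, an HSP70 known from testis, was at 0.46, Hspa13, a microsomal HSP70, at 0.31, and Hspa14, which sits on ribosomes, at 0.15. The lowest was Hspa12b, an atypical HSP70 best known from endothelium, at -0.31, with 743 in N2ICD and 818 in control. Beside it, 5 measured endothelial markers had a median of -0.34 and ran from -0.59 to 0.12. Their part in the Hspa12b value was not tested.

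**Figure D2:**
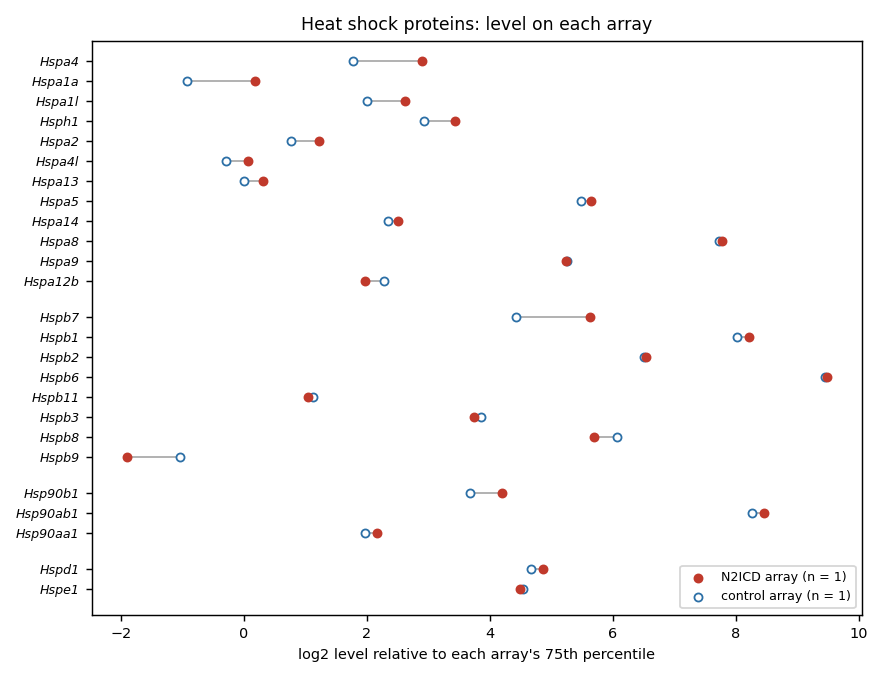
Log2 level in N2ICD (filled) and control (open) muscle, relative to the 75th percentile of each array, for HSP70 and HSP110, small heat shock protein, HSP90 and mitochondrial chaperonin genes, from top to bottom. The widest gaps upwards are at Hspb7 (1.20), Hspa4 (1.12) and Hspa1a (1.11), and the widest downwards at Hspb9 (-0.86); levels of different genes come from different probes and are not comparable.

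Small heat shock proteins were split. The 8 genes had a median of -0.03, turning to 0.04 with median scaling and 0.45 on the spike-in scale, against 0.14 for the other members, with 4 above 0 and 4 below. Hspb7, a small heat shock protein of heart and skeletal muscle that binds filamin C, stood apart. Its probe (mm9, chromosome 4, 140980355 to 140980414) was printed at 10 spots. Across these spots the signal ran from 8667 to 9844 with a median of 9438 on the N2ICD array, and from 3442 to 3814 with a median of 3673 on the control array. The spots of the 2 arrays did not overlap. The differences of the 10 spots ran from 1.12 to 1.27 with an SD of 0.05, and the mean difference of 1.20 is 2.29-fold. All spots of Hspb7 thus gave about the same difference, though in 1 muscle sample of each group.

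The remaining small heat shock proteins ran from -0.86 to 0.20. Hspb1 (HSP27), a heat-inducible protein that binds actin filaments, had 56744 in N2ICD and 43801 in control, a difference of 0.20 that is over 2 spot SD. Hspb6 (HSP20), a cytosolic small heat shock protein abundant in muscle, was at 0.02. The partners Hspb2 and Hspb3, which assemble with each other in muscle, were at 0.03 and -0.11. Hspb8, which works with Bag3 to hand damaged sarcomere proteins to autophagy, had 9866 in N2ICD and 11334 in control, a difference of -0.37. Hspb9, a testis gene, was dim, with 50.8 in N2ICD and 81.9 in control, a difference of -0.86 where the spot SD was 0.24. Hspb11, which is named as a small heat shock protein but belongs to the transport machinery of cilia, was at -0.09. Outside the name rule, the lens and muscle small heat shock protein Cryab was at 0.03, with -0.03 and 0.08 at its 2 probes.

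All 3 HSP90 genes were higher, each on 1 measured probe. The cytosolic pair were alike in size, Hsp90aa1, the inducible form, at 0.20 (854 in N2ICD and 661 in control) and Hsp90ab1, the constitutive form, at 0.21 (67182 in N2ICD and 51716 in control). These 2 values are under the SD of 0.25 between probes of the same gene. With its dim probe kept, Hsp90aa1 was at 0.05. Hsp90b1 (GRP94), the HSP90 of the endoplasmic reticulum, was at 0.51, with 3473 in N2ICD and 2170 in control. The mitochondrial chaperonin pair was split. Hspd1 (HSP60) had 5517 in N2ICD and 4311 in control, a difference of 0.18 that is over 2 spot SD. Its lid Hspe1 (HSP10) averaged -0.06, within 2 spot SD, over 3 probes that ran from -0.10 to -0.01.

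Hspd1 and Hspe1 lie head to head, with 215 bases between the start of Hspe1 and one start of Hspd1, and share the longest run of heat shock units found among the members. The stretch is shown (RefSeq, GRCm38.p6, chr1:55088053-55088082, plus strand, in the direction of Hspe1; another start of Hspd1 lies past that of Hspe1, so the genes overlap there), since both genes of this element stayed within 1.5-fold. Capitals mark the alternating units, which lie 89 to 72 bases before the start of Hspe1. The other shown element is that of Dnajb6 (GRCm38.p6, chr5:29735822-29735894, plus strand), with its units in capitals 46 to 34 bases before one of its starts.
Hspe1: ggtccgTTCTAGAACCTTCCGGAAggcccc
Dnajb6: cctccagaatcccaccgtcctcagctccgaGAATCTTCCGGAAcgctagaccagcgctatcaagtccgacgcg
Heat shock elements were searched as alternating GAA and TTC units with 2 bases of any kind between neighbours, starting with either unit, as 3 units and as 2 units. These forms cover both strands, and the longer holds the shorter. The search ran in windows from 250 bases before to 50 bases after each start. The 3-unit form was in 4 of the 70 members found in the promoter table, or 5.71%, against 0.662% of 27025 genes: Hspd1, Hspe1, Dnajb6 and Hsph1, where it lies after the start. Their differences were 0.18, -0.06, -0.19 and 0.50. The 2-unit form was in 20 members, or 28.6%, against 17.0% of genes. The 18 measured members with it had a median of 0.09, with 11 above 0, and the 43 measured ones without it a median of 0.13, with 31 above 0. The window of Hspa1a holds the 2-unit form, 104 to 97 bases before its start. These matches are letters in a window and were not tested for binding.

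J-domain genes were 37 of the measured members, and their leading gene led the whole group. Class A, the general HSP70 partners closest to bacterial DnaJ, had a median of 0.04 over 4 genes, and of 0.21 with no filter on dim probes. Dnaja4 was at 0.48, with 0.69 at a probe with 16628 in N2ICD and 9126 in control and 0.27 at a dimmer one. Dnaja1, a main partner of cytosolic HSP70, was at 0.12, Dnaja2, its relative, at -0.04 and Dnaja3, the mitochondrial one, at -0.10. The probes of Dnaja4 thus gave different sizes.

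Class B had a median of 0.30 over 9 measured genes, and of 0.11 with no filter on dim probes. Of the 9, 6 were above 0, or 66.7%, beside 50.8% of all genes, and 3 were below. Dnajb4, a cytosolic partner of HSP70 in muscle and heart, had 264 in N2ICD and 162 in control, a difference of 0.54. Its close relatives did not follow it: Dnajb1, the heat-inducible HSP40, was at -0.03 (1714 in N2ICD and 1557 in control) and Dnajb5 at -0.30, lower at both of its probes. Dnajb6, which keeps aggregation-prone proteins soluble and whose human mutations cause a limb-girdle muscular dystrophy, was at -0.19, with -0.32, -0.29, -0.11 and -0.03 at its 4 probes. Dnajb2, which links HSP70 clients to the proteasome, was at 0.30. The other 4 class B genes above 0, Dnajb9, Dnajb11, Dnajb12 and Dnajb14, are proteins of the endoplasmic reticulum and are given with that compartment.

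Class C, in which the J domain is built into proteins of many kinds, had a median of 0.11 over 24 measured genes. Of these 19, or 79.2%, were above 0, beside 70.7% of all measured members and 50.8% of all genes. Dnajc21, a J-domain protein that helps mature the large ribosomal subunit, was the highest member. Its probe at position 285 of the transcript had 415 in N2ICD and 149 in control, a difference of 1.31. Its probe at position 1428 had 462 in N2ICD and 164 in control, a difference of 1.32. Separate regions of the transcript thus gave almost the same value, 2.49-fold over both, while another probe, designed to a different transcript model, was well above background on neither array. Dnajc27, a Rab-like GTPase with a J domain, had 152 in N2ICD and 76.9 in control, a difference of 0.81 from 1 spot in the dimmest level group. Dnajc2, the ribosome-bound J-domain partner of Hspa14, had 360 in N2ICD and 200 in control, a difference of 0.67. The probes of Dnajc21 at position 285 (mm9, chr15:10393643-10393702, minus strand) and Dnajc27 (mm9, chr12:4097335-4103101, plus strand, joined over an intron) are shown as the sequences that read the highest class C differences.
Dnajc21: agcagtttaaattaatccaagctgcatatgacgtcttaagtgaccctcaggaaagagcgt
Dnajc27: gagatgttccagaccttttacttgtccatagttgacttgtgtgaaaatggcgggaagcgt
The lowest class C genes were Dnajc10, a disulfide reductase of the endoplasmic reticulum, at -0.46, Dnajc11, which associates with the mitochondrial complex that shapes cristae, at -0.21, and Dnajc7, which shuttles clients between HSP70 and HSP90, at -0.20. Dnajc10 was lower at both probes (-0.60 and -0.33).

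The remaining class C genes were all under 1.5-fold. Apart from those placed with the endoplasmic reticulum, the highest of them was Dnajc25 at 0.33, with 0.44 and 0.22 at its 2 probes. Dnajc5 (CSP alpha), a chaperone of secretory vesicles, was at 0.20, with 0.31, 0.22 and 0.09 at its 3 probes. Dnajc9, a histone chaperone, was at 0.24, and Dnajc13, an endosomal protein, at 0.13. The spliceosome-associated genes Dnajc8 and Dnajc17 were at 0.04 and 0.10. Dnajc24, an enzyme cofactor of diphthamide synthesis, was at 0.02 and Dnajc12, which assists aromatic amino acid hydroxylases, at -0.03.

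**Figure D3:**
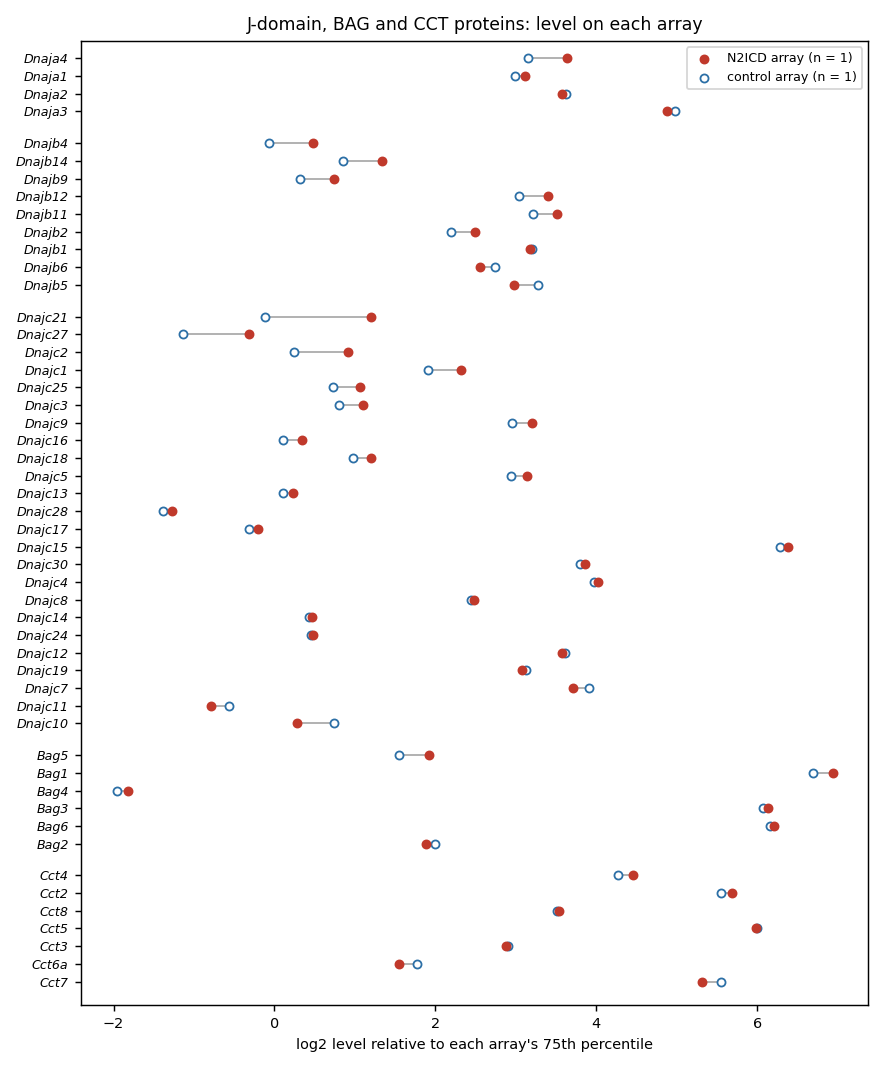
Log2 level in N2ICD (filled) and control (open) muscle, relative to the 75th percentile of each array, for J-domain classes A, B and C, BAG and CCT genes, from top to bottom and by difference within each. Dnajc21 has the widest gap (1.31), and most BAG and CCT pairs overlap or nearly so; levels of different genes are not comparable.

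Members that work in the endoplasmic reticulum were grouped after the values were seen, so that their shared direction is a description only. Of the 10 placed there, 9 were above 0, or 90%, beside 70.7% of all measured members and 50.8% of all genes. None of the 9 was 1.5-fold, and the median was 0.34, from -0.46 for Dnajc10 to 0.51 for Hsp90b1. These values depend on which genes were placed there. Members left out of the group include Dnajc16 (0.24), Dnajc18 (0.22) and Dnajc14 (0.03). Dnajb14, a membrane protein that takes part in degrading misfolded proteins, was at 0.48, with 0.80 and 0.17 at its 2 probes, and its relative Dnajb12 was at 0.37. Dnajb9 (ERdj4), a J-domain partner of BiP, was at 0.42, with 0.37 and 0.47 at its 2 probes, and Dnajb11 (ERdj3), another partner of BiP, had 2172 in N2ICD and 1567 in control, a difference of 0.30. Dnajc1, a membrane partner of BiP, was at 0.40, and Dnajc3 (P58IPK) had 409 in N2ICD and 295 in control, a difference of 0.30. The 9 genes above 0 ran from 0.17 to 0.51. The 14 measured genes of a list of other folding genes of this compartment had a median of 0.02, with 7 above 0 and 7 below. Among them P4hb, a protein disulfide isomerase, was at 0.53 and Xbp1, a transcription factor of the unfolded protein response, at 0.41. Pdia6, another disulfide isomerase, was at 0.38, with 0.07 and 0.69 at its 2 probes. Serpinh1, the collagen chaperone HSP47, was at -0.38, Ddit3 (CHOP) at -0.11 and Calr, the lectin chaperone calreticulin, at 0.05.

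The endoplasmic reticulum stress element, searched as CCAAT, 9 bases of any kind and CCACG on both strands, was in the promoter window of 3 of 70 members, or 4.29%, against 0.137% of 27025 genes. The members were Hspa5, Hsp90b1 and Dnajc3, which had differences of 0.17, 0.51 and 0.30. Their promoters are shown (RefSeq, GRCm38.p6) because this element is the known response sequence of the unfolded protein response, with each match in capitals. The stretch of Hspa5 is chr2:34771995-34772073 on the plus strand, with the match 65 to 47 bases before the start. That of Hsp90b1 is chr10:86705503-86705686 on the minus strand, with 2 matches, 212 to 194 and, in the opposite direction, 107 to 89 bases before the start. That of Dnajc3 is chr14:118937797-118937875 on the plus strand, with the match 105 to 87 bases before the start.
Hspa5: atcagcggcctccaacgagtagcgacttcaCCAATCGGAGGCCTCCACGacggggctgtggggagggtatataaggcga
Hsp90b1: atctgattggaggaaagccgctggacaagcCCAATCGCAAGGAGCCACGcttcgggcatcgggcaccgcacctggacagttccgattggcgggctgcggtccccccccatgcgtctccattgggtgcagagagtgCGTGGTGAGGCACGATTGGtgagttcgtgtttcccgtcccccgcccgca
Dnajc3: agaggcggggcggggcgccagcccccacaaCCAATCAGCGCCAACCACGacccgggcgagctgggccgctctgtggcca
Whether these elements were in use in either muscle was not tested.

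The 8 mitochondrial members, a grouping also chosen after the values were seen, had a median of -0.03, turning to 0.04 with median scaling and 0.44 on the spike-in scale. Their range was -0.21 for Dnajc11 to 0.18 for Hspd1. Of them 3, or 37.5%, were above 0, beside 50.8% of all genes. Dnajc19, part of the protein import motor, had opposite signs at its 2 probes, 0.19 and -0.29, and Dnajc15, its relative, was at 0.09. Of 10 other genes of mitochondrial folding and proteolysis, 6 were above 0, or 60%, beside 50.8% of all genes. Their median was 0.11. The protease subunit Clpx was at 0.40, the protease Lonp1 at 0.27 and Trap1, the mitochondrial HSP90, at -0.13.

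BAG genes, the exchange factors and adaptors of HSP70, had a median of 0.10 over 6 genes, none of them 1.5-fold. Of these, 5 were above 0, or 83.3%, beside 50.8% of all genes. Bag5 was at 0.37, with 0.54 and 0.20 at its 2 probes, and Bag1, which couples HSP70 to the proteasome, was at 0.24. Bag3, the partner of Hspb8 in muscle, had 13321 in N2ICD and 11351 in control, a difference of 0.06. Bag4 was at 0.14, Bag6, which guards membrane proteins on their way to insertion, at 0.05 and Bag2, an inhibitor of the ubiquitin ligase CHIP, at -0.11. Of 9 measured partners and clients of Bag3 in muscle, 7 were above 0, or 77.8%, beside 50.8% of all genes. Their median was 0.16. The Z-disc crosslinker Flnc was the highest at 0.59, with 53164 in N2ICD and 31336 in control, desmin (Des) was at 0.28, the autophagy receptor Sqstm1 at 0.21 and the non-muscle filamin Flna at -0.38. Hspb7, a binder of Flnc, was higher alongside it, while Hspb8 and Bag3 were at -0.37 and 0.06.

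CCT, the cytosolic chaperonin that folds actin and tubulin, was centred on 0 relative to the typical gene, with a median of -0.02 over 7 measured subunits that turned to 0.05 with median scaling and 0.46 on the spike-in scale. The subunits ran from -0.24 for Cct7 and -0.22 for Cct6a, through -0.02 for Cct3 and Cct5 and 0.03 for Cct8, to 0.14 for Cct2 and 0.19 for Cct4. Another subunit of the ring, Tcp1, which the name rule does not take, was at 0.11. Prefoldin hands actin and tubulin to CCT. A list of its subunits with the prefoldin-like genes Uri1 and Pdrg1 had a median of 0.10 over 7 measured genes of 8 listed. Uri1 and Pdrg1 were at 0.08 each. Among the subunits, Vbp1 was at 0.40, with -0.03 and 0.83 at its 2 probes. Pfdn1 was at 0.32, Pfdn4 at 0.29, Pfdn5 at 0.10 and Pfdn2 at -0.22. No measured gene of CCT or of the prefoldin list reached 1.5-fold.

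Agreement between probes was uneven. Of the 75 measured members, 54 rested on 1 measured probe and 21 on several, of which 17 had all probes on one side of 0 and 4 had opposite signs. The probes of Hspa4 were the farthest apart, by 1.22. In the authors' deposited table, which lists an unsigned fold and a direction for each probe, Hspb7 was 2.317-fold up, Hspa1a 2.175-fold up, the probes of Dnajc21 2.525-fold and 2.502-fold up and those of Hspa4 3.462-fold, 2.062-fold and 1.484-fold up. Hspb9 was 1.796-fold down in the authors' deposited table.

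**Figure D4:**
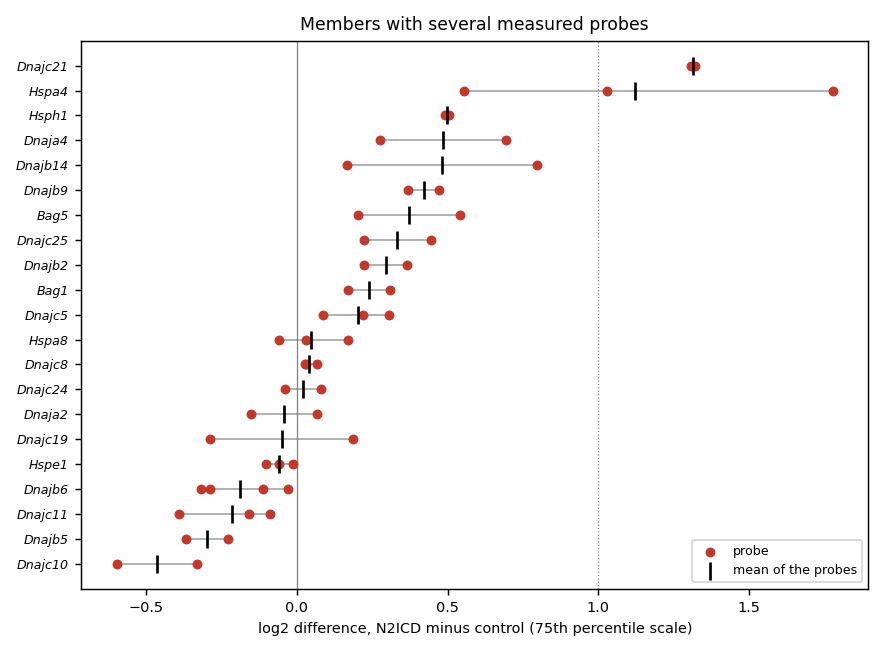
Log2 difference, N2ICD minus control, at each measured probe (points) of the 21 members with several measured probes, with the mean over probes (black tick), on the 75th percentile scale with 1 array in each group. Both probes of Dnajc21 coincide near 1.31, those of Hspa4 spread over 1.22, and the dotted line marks 2-fold.

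Regulators and helpers of the cytosolic heat shock system differed by less than 2-fold. The list held 27 heat shock factors and co-factors outside the name rule, of which 25 were measured. Of these, 18 lay within 2 spot SD, beside 7650 of all 13625 measured genes. By over 2 spot SD, 6 were higher, beside 23.6% of all genes, and 1 was lower, beside 20.2%. The difference was above 0 for 19, or 76%, beside 50.8% of all genes. The median was 0.07 and 0 reached 2-fold, beside 1.42% of all genes upwards and 0.888% downwards. Hsf1, the factor that switches on the heat shock response, had 2258 in N2ICD and 1590 in control, a difference of 0.33, while Hsf2 was at -0.06 and Hsf4 at -0.17. Cacybp, a calcyclin-binding protein that interacts with the ubiquitin ligase Siah, was the highest at 0.65. After it came Hsf1, the HSP70 cofactor St13 at 0.31 and the HSP90 cofactor Chordc1 at 0.28. The muscle myosin chaperone Unc45b was at 0.07. Its partner Smyd1 averaged 0.06 over 2 probes of opposite sign, -0.34 and 0.46. Stip1, which bridges HSP70 and HSP90, was at 0.10, Ahsa1, an activator of HSP90, at 0.06 and Cdc37, its kinase adaptor, at -0.13. Among members, 7 genes picked from those that heat shock is known to induce, grouped after the values were seen, had a median of 0.20. They were Hspa1a (1.11), Hsph1 (0.50), Hspb1 (0.20), Hsp90aa1 (0.20), Dnaja1 (0.12), Bag3 (0.06) and Dnajb1 (-0.03). These 7 thus ranged from 2-fold higher to level with the typical gene. Their median depends on the choice of genes. Of the 4 members with the 3-unit heat shock element, only Hsph1 is among them. Hspd1 (0.18), Hspe1 (-0.06) and Dnajb6 (-0.19) are not.

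**Figure D5:**
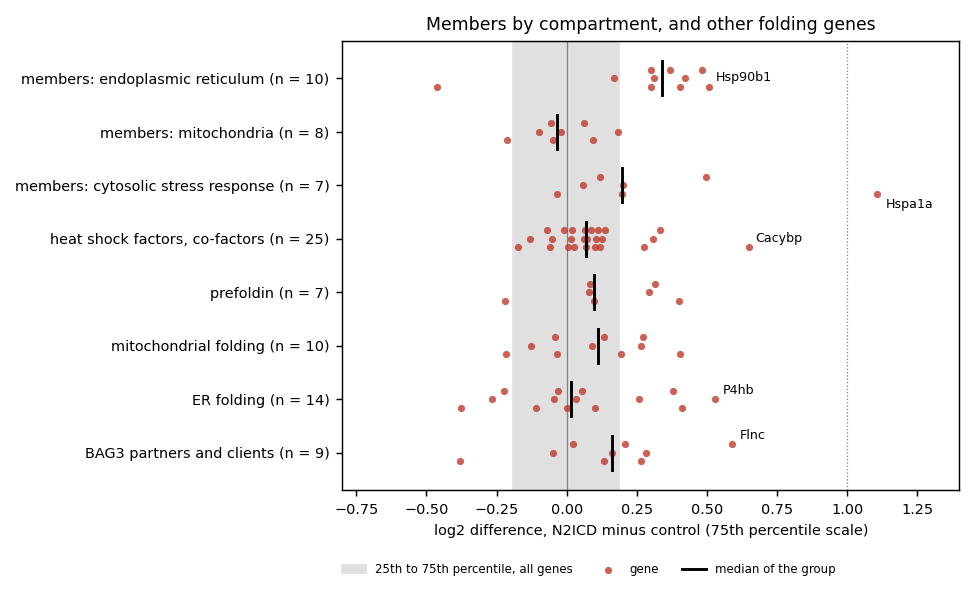
Log2 difference, N2ICD minus control, of members grouped by compartment after the values were seen (top) and of other folding genes by list (below), with the median of each group (black bar) and the 25th to 75th percentile of all measured genes (grey). Members of the endoplasmic reticulum have a median of 0.34, the other folding genes of that compartment one of 0.02, and members of mitochondria centre at -0.03 on this scale and 0.44 on the spike-in scale.

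Markers were measured to place these values. All 10 muscle fibre markers were measured, with summed signals of 2341362 in N2ICD and 2321174 in control and a median of -0.19. Among the other cell types, the median was -0.42 for macrophage, by 5 of the 6 markers found on the array. It was -0.27 for 6 of 6 fibroblast markers and -0.34 for 5 of 5 endothelial markers. The other medians were -0.08 for 3 of 4 adipocyte markers, -0.08 for 4 of 4 Schwann cell markers and -0.12 for 4 of 4 erythroid markers. Summed signals took every listed gene on the array, measured or not, with all its probes. Unlike the medians, these sums were not scaled to the 75th percentile of each array, 190 for N2ICD and 169 for control. For macrophage they were 1344 in N2ICD and 1719 in control. For fibroblast they were 91669 in N2ICD and 100409 in control, and for endothelium 5051 in N2ICD and 6190 in control. The sums were higher in N2ICD for adipocyte markers, with 531 in N2ICD and 467 in control. So were those of Schwann cell markers (305 in N2ICD and 248 in control) and erythroid markers (40459 in N2ICD and 38180 in control). The erythroid markers were all below 0, and every other group was split. Fibre markers ran from -0.52 (Ckm) to 0.64 (Mb), and endothelial markers from -0.59 (Emcn) to 0.12 (Pecam1). Fibroblast markers ran from -0.41 to 0.11, adipocyte markers from -0.30 to 0.37 and Schwann cell markers from -0.32 to 0.78. Macrophage markers ran from Csf1r at -0.61 to Lyz2 at 0.40. The macrophage median ran from -0.43 to 0.10 over the alternatives other than the spike-in scale. On the spike-in scale the median of every one of these cell types lay above 0, from 0.06 for macrophage to 0.40 for adipocyte and Schwann cell. Genes that respond within minutes to stress and handling of tissue were listed too. Of the 6 measured of 8 listed, 5 were above 0, or 83.3%, beside 50.8% of all genes. At least 2-fold higher were 4 of them, beside 1.42% of all genes, and the median was 1.73. The summed signals of all 8 were 15177 in N2ICD and 7914 in control. Most of both sums came from Jun, with 12924 in N2ICD and 7293 in control, 1.57-fold higher. Atf3 had 736 in N2ICD and 122 in control, Fos had 396 in N2ICD and 69.6 in control, and Egr1 had 706 in N2ICD and 139 in control. Among the markers, Cd163 (macrophage), Lep (adipocyte), Junb and Ier2 (stress and handling) were not measured on both arrays. The part of handling, and of cell make-up, in the chaperone differences was not tested.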

How the data were processed

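Muscle RNA of 1 N2ICD and 1 control sample was labelled with Cy3 and hybridised to 1 array each, per the labels' protocols. Per the file headers, the authors' spot intensity came from version 10.10.1.1 of Agilent Feature Extraction, and probe positions are mm9. The authors' deposited table holds a fold with its direction, an intensity and a log2 value per probe, made by steps the sources used here do not give.

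From the scanner files, log2 of the processed signal minus the array's 75th percentile over non-control spots was computed. Control spots and 215 outlier spots were left out, spots of one probe averaged (55672 probes), and measured probes, those well above background on both arrays, averaged per gene. Names are those of the files. No test was possible, so members were counted at 2-fold and 1.5-fold and set beside all measured genes. Named members (51) were those past 1.5-fold, the 3 highest and 3 lowest of each family or all of a family of 8 or fewer, and a list fixed by name; other class C genes, members grouped by compartment and list genes were chosen after their values were seen. Members and lists were chosen with earlier results of these data known. The steps were tested on simulated data. Tools were limma 3.58.1 in R 4.3.3 (normexp with offset 50, quantile and loess), with pandas 2.3.3 and numpy 2.4.6 in Python 3.11.15. The number of arrays limits the precision.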

Additional observations from a re-analysis of the deposited data

How the results depend on the processing

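Of 13 alternatives, most left the counts and medians near their values. The number of members at least 2-fold higher, 4, was 2 with normexp background correction, under which Hspa4 (0.94) and Hspa1a (0.79) dropped below, 8 on the spike-in scale and 7 at 1.5-fold. The number at least 2-fold lower, 0, was 1 with no filter on dim probes, where Dnajb8 was above background on neither array, and 1 at 1.5-fold. The member median was 0.61 and that of the small heat shock proteins 0.45 on the spike-in scale, against 0.10 to 0.20 and -0.06 to 0.04 under the others. The excess of the member median over that of all genes was 0.11 to 0.18 under every setting of scale, filter and probes. Over all genes, 2-fold higher and lower counts were 194 and 121 in the main setting, 81 and 43 with normexp, 364 and 328 with the looser filter, 829 and 965 with no filter and 893 and 25 on the spike-in scale, so that 61.6%, 65.3%, 52.6%, 46.2% and 97.3% of the calls were higher. Median scaling gave 70.1%. Hspb7 kept 1.13 to 1.27 outside the spike-in scale, Dnajc21 0.70 (no filter) to 1.38, and Hspa4 0.55 (brightest probe) to 1.19. No paired analysis was possible because each group has 1 array, and for the same reason no replicate could be left out.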
